A study of Mus musculus with 28 samples.

Results

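The data described here are hydroxymethylated DNA immunoprecipitation sequencing (hMeDIP-seq) of wild-type mouse embryonic stem cells (mESCs) with and without knockdown of Kap1. They comprise 8 of the 28 samples of the series, all hMeDIP samples of wild-type cells, in 2 replicates of 4 libraries each. In each replicate, 5hmC and total input DNA were sequenced from cells carrying an empty hairpin vector (shEmpty) or a hairpin against Kap1 (shKap1). The remaining samples are RNA-seq of wild-type, DNMT and TET knockout cells and ChIP-seq of histone marks, and the study asked whether KAP1 shields its targets from hydroxymethylation. All 8 samples came from the J1 line, a single line of strain 129S4/SvJae, wild type at the Dnmt and Tet genes, which was kept naive in N2B27 medium with LIF and 2i (an inhibitor of MEK and one of GSK3). Both conditions were transduced with a lentiviral vector, selected with puromycin and collected after 5 days, so that the hairpin was the labelled difference between them. The study describes the replicates as independent hMeDIP-seq experiments, and the labels do not say whether they were separate transductions.

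KAP1 (gene Trim28) is a corepressor without DNA binding of its own, which KRAB (Krüppel-associated box) zinc finger proteins (KZFPs) bring to transposable elements (TEs) and to imprinting control regions (ICRs), where it recruits the enzyme SETDB1 that deposits the repressive mark H3K9me3. 5hmC is made from 5-methylcytosine (5mC) by the TET dioxygenases, and it occurs mostly at CpG dinucleotides that were methylated before. In hMeDIP an antibody pulls down DNA fragments that carry 5hmC, and reads in a region are compared with those of the sonicated input.

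Reads had been counted in 88984 regions of 6 sets, which were KAP1 binding sites, H3K9me3 regions that depend on KAP1, H3K9me3 regions that do not, H3K4me3 regions, H3K27me3 regions and ICRs. Of these, 87623 had at least 10 reads over the 2 inputs in each replicate and were kept. A position could be counted in more than one set. Of the kept regions, from all sets, 38350 overlapped a KAP1 region, the 25878 KAP1 regions themselves included.

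The sequences below are shown because these ICRs carry clear shared changes in both directions and because ZFP57, the KZFP that brings KAP1 to imprinted loci, is known to bind the methylated hexamer TGCCGC. Each is a stretch of 150 bases from the NCBIM37 (mm9) genome, plus strand, chosen in its ICR as the stretch with the most hexamers, and capitals mark TGCCGC or its reverse complement GCGGCA, which can overlap each other. H19 (imprinted, non-coding), IG-DMR (between Dlk1 and Gtl2), Gnas and Peg3 had more 5hmC in shKap1, whereas Grb10 had less, as described below.
H19, chr7:149766130-149766279: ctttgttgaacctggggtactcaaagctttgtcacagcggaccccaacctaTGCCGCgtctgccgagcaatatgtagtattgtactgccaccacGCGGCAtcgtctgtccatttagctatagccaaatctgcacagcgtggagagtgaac
IG-DMR, chr12:110766506-110766655: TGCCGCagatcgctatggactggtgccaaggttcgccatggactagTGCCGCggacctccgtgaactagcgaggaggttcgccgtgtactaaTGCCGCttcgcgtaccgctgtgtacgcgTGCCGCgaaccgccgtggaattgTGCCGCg
Gnas, chr2:174121345-174121494: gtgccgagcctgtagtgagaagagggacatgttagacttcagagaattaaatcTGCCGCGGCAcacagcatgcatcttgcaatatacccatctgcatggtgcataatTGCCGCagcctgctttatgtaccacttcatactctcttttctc
Peg3, chr7:6682766-6682915: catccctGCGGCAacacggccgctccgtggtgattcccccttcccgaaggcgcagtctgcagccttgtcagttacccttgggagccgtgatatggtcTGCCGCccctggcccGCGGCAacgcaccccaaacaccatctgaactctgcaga
Grb10, chr11:11926123-11926272: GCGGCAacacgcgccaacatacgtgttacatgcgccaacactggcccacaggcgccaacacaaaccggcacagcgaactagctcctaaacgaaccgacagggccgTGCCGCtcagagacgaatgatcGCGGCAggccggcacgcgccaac
The H19 and IG-DMR stretches are intergenic, and the ICRs of Gnas, Peg3 and Grb10 overlap exons of these genes. Among the ICR entries kept, hexamers stood at 2.04 per kb in the 16 that overlapped a KAP1 region (14 with at least 1) and at 0.370 per kb in the 11 that did not (6 with at least 1). The latter value is pooled over bases, of which 26074 of 32420 lie in the long Zdbf2 and Rasgrf1 entries, and the other 9 entries stood at 1.10 per kb. The Grb10 ICR held 4 hexamers in all and the H19 ICR held 5, although their 5hmC went in opposite directions. In the central 300 bases of regions at least that long, either form of the hexamer was found in 38.5% of the 26 ICRs, 18.9% of the 25740 at KAP1 sites, 16.4% of the 14639 at KAP1 sites with H3K9me3, 7.53% of the 14173 with KAP1-dependent H3K9me3, 16.5% of the 27695 with H3K4me3 and 6.13% of the 18529 with H3K27me3.

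The following 5 stretches are the central 150 bases of regions with among the largest shared changes of their sets, with CpG in capitals because 5hmC is found there. The first 3 had more 5hmC in shKap1 and the last 2 had less.
KAP1 region with L1Md_F and MMERVK10C, chr12:24844920-24845069: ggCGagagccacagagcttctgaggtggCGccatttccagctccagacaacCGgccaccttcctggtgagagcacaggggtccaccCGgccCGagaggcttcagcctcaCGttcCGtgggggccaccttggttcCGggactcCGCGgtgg
KAP1-dependent H3K9me3 region with L1Md_F2, chr1:197108225-197108374: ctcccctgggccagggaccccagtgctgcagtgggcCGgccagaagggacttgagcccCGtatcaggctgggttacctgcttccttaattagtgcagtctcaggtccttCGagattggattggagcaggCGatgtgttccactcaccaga
KAP1-independent H3K9me3 region with IAPEz, chr1:197148425-197148574: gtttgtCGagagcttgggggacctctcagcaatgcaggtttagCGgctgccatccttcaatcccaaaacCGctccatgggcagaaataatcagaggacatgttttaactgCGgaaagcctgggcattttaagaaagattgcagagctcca
KAP1 region with a CCG repeat, chr6:13627979-13628128: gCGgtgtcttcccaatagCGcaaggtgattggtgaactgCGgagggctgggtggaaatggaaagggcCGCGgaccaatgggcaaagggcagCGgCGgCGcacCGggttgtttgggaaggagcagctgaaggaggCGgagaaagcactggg
H3K27me3 region with a TCC repeat, chr8:129333125-129333274: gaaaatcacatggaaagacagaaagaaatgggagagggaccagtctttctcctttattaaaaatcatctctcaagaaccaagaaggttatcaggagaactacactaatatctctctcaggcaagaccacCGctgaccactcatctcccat
These stretches held 10, 4, 4, 10 and 1 CpG, in that order.

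Before any result, the labels of replicate 2 have to be set against its values. Each replicate 2 library was compared with the 4 replicate 1 libraries over 87884 regions by the Pearson correlation of log2 scaled reads. The library labelled input shEmpty, replicate 2, correlated at 0.935 with 5hmC shEmpty of replicate 1 and at 0.547 and 0.551 with its inputs. The library labelled 5hmC shEmpty correlated at 0.938 with 5hmC shKap1, at 0.872 with 5hmC shEmpty and at 0.447 and 0.452 with the inputs. Conversely, the libraries labelled input shKap1 and 5hmC shKap1 correlated at 0.924 to 0.933 with the replicate 1 inputs and at 0.544 to 0.577 with its 5hmC libraries. By likeness, then, both libraries labelled shEmpty were 5hmC libraries and both labelled shKap1 were inputs.

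For 3 of the 4 libraries this reading goes against the title, in the kind of DNA, the hairpin or both. The names of the deposited tables also differ from the titles, and for the 5hmC-like libraries they give the same kind and hairpin as the reading from values. Within each of the 6 region sets the kind read was the same in 24 of 24 comparisons, and the nearest library was the same in 23 of 24. Within replicate 1 the 5hmC libraries correlated at 0.905 with each other, less than each did with its nearest replicate 2 library. The inputs of replicate 1 correlated at 0.924 with each other and the input-like libraries of replicate 2 at 0.934, so values gave no hairpin for the input-like libraries.

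**Figure D1:**
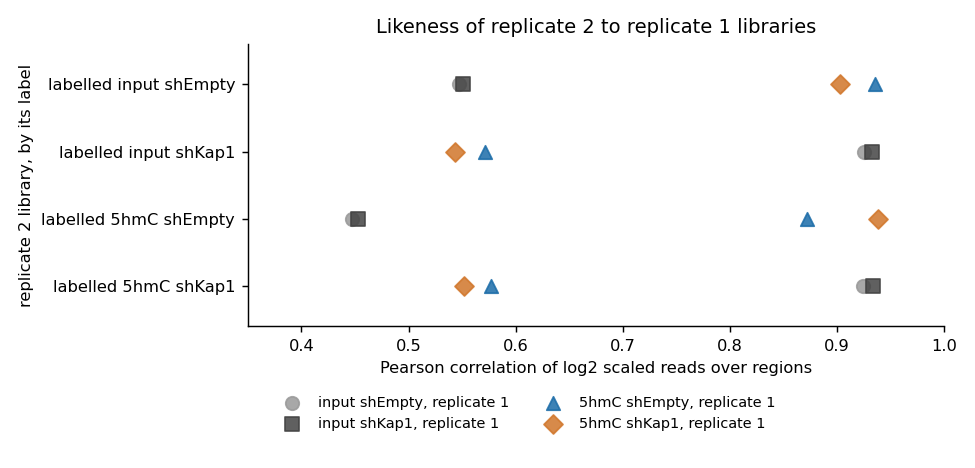
Each row is a replicate 2 library by its label, and the symbols give its Pearson correlation (x axis) with each of the 4 replicate 1 libraries over 87884 regions. The libraries labelled input shEmpty and 5hmC shEmpty lie near the 5hmC libraries of replicate 1, and the other pair lies at 0.924 to 0.933 from its inputs.

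In what follows, replicate 2 stands for the library labelled 5hmC shEmpty over the library labelled input shEmpty, read as 5hmC shKap1 over 5hmC shEmpty. The hairpin was read from likeness to replicate 1 over these same regions, so that neither the direction of the replicate 2 changes nor their likeness to those of replicate 1, in sets or in single regions, is evidence of its own. Counts of regions changed in both replicates are descriptions for the same reason. No test was run, since by its labels replicate 2 holds no pair of 5hmC-like libraries that differ in hairpin, and with the roles read from values a test would draw on the likeness that set them.

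Reads per library in all sets ranged from 4590132 to 12571208. One region, the 38399 bases at chr9:3000001-3038399 that are almost entirely major satellite (GSAT_MM, the repeat of pericentromeric heterochromatin), held 20.8% to 42.7% of each library and was left out of the scaling totals, which then ranged from 3628841 to 9374072. In RNA-seq of the same line and treatment, in separate samples with 18108431 to 28707470 gene counts each, Trim28 stood at 1601 to 1926 CPM (gene counts scaled to a common library size) in the 3 shEmpty libraries and at 155 to 194 in the 3 shKap1 libraries, 9.93% of the shEmpty mean. The pluripotency factors Pou5f1 (814 to 824 and 784 to 807 CPM), Nanog (874 to 1162 and 619 to 705), Sox2 (294 to 368 and 129.9 to 137) and Esrrb (836 to 843 and 467 to 496) were well expressed in both conditions, with lower levels in every shKap1 library. Of the TET genes, Tet1 (595 to 724 and 620.4 to 673 CPM) and Tet2 (322 to 446 and 426 to 502) overlapped between conditions, whereas Tet3 stood at 10.3 to 15.7 CPM in shEmpty and at 48.5 to 54.4 in shKap1. Tdg, the glycosylase that removes oxidized derivatives of 5mC, stood at 6.12 to 6.72 and 8.38 to 9.04 CPM. The part of these RNA differences in the 5hmC values was not tested.

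Across region sets, 5hmC was higher in shKap1 over KAP1 regions, above all where they also carried H3K9me3, and lower, relative to all regions together, over H3K27me3 regions and H3K9me3 regions without KAP1. The measure is the log2 change of scaled 5hmC reads, shKap1 over shEmpty, and it is given as the median over regions, for replicate 1 first. Over the 25878 KAP1 regions the median change was 0.23 and 0.37, against 0.04 and -0.09 over all regions. In the 14687 KAP1 regions that overlapped H3K9me3 it was 0.41 and 0.64, whereas in the 11191 that did not it was -0.02 and 0.02. The median of regions with H3K9me3 thus exceeded that of regions without it by 0.43 and 0.62. The inputs, measured the same way, differed between the same groups by 0.005 and 0.046. KAP1 regions with H3K9me3 were also longer, with a median of 921 against 605 bases, and the part of length was not tested.

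H3K9me3 regions divided in the same manner by KAP1. The 9949 KAP1-dependent H3K9me3 regions with a KAP1 region had median changes of 0.42 and 0.60, and the 4418 without one had -0.16 and -0.28, a difference of 0.58 and 0.88. Among the 572 KAP1-independent H3K9me3 regions, the 317 with KAP1 stood at 0.11 and 0.06 and the 255 without it at -0.45 and -0.67, the lowest medians of these groups. Regions with KAP1 stood above those without it in both kinds of H3K9me3 regions in replicate 1, and in replicate 2 as read, while the median input changes of these groups stayed between -0.02 and 0.083. Those with KAP1 were also longer, with medians of 1999 against 1399 bases in the KAP1-dependent set and 4999 against 1599 in the other. The part of length was not tested. Where KAP1 had to cover 50% of the region, the difference in KAP1-dependent H3K9me3 regions was 0.41 and 0.70, but those counted as without KAP1 then stood at 0.15 and 0.15.

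H3K4me3 regions, which mark mainly active promoters, stood at -0.01 and -0.22 (27793 regions), and H3K27me3 regions, which mark Polycomb targets, at -0.16 and -0.43 (18986 regions). Chromosomes 6 and 8 held 35.3% of the H3K27me3 regions (6707), with a lower CpG density (1.13 against 1.68 per 100 bases) and medians of -0.26 and -0.52, while the 12279 on other chromosomes stood at -0.10 and -0.38. The median of KAP1 regions exceeded that of all H3K4me3 regions by 0.25 and 0.59 and that of all H3K27me3 regions by 0.39 and 0.80. The 1903 KAP1 regions that overlapped H3K4me3 did not share the gain and stood at -0.12 and -0.09. The replicates went apart for H3K4me3 regions split by KAP1, since those with KAP1 were lower by 0.10 than those without in replicate 1 and higher by 0.13 in replicate 2. Differences between sets do not depend on the scaling, but the medians themselves do. With the satellite block kept in the totals every change moved up by 0.27 in replicate 1 and 0.38 in replicate 2, so that the medians of H3K4me3 regions became 0.26 and 0.16, those of H3K27me3 regions 0.12 and -0.05, and those of KAP1-dependent H3K9me3 regions without KAP1 0.12 and 0.10. KAP1-independent H3K9me3 regions without KAP1 stayed below 0, at -0.17 and -0.29.

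**Figure D2:**
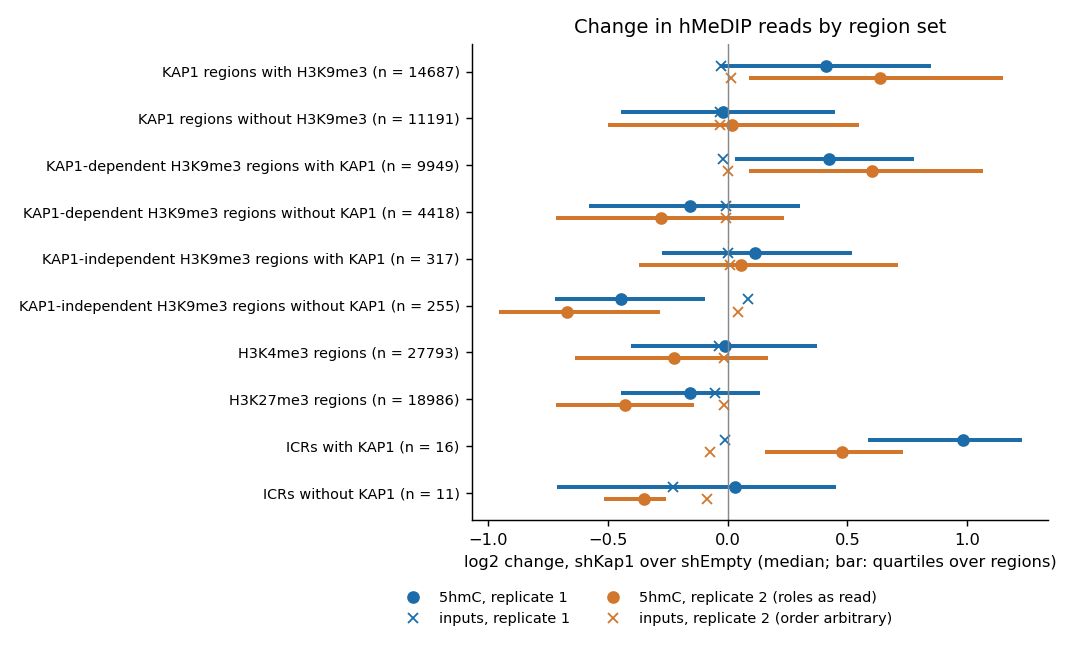
Points give the median log2 change of 5hmC reads (x axis, shKap1 over shEmpty) for 10 groups of regions, bars the quartiles over regions, and crosses the median change of the inputs. KAP1 regions with H3K9me3 lie at 0.41 and 0.64, KAP1-independent H3K9me3 regions without KAP1 at -0.45 and -0.67, and the crosses of the large sets lie close to 0.

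Of all regions kept, 7.51% were at least 2-fold higher in shKap1 in replicate 1 and 11.2% in replicate 2, 4.4% and 7.73% were at least 2-fold lower, and 3.88% were 2-fold higher and 1.3% 2-fold lower in both. In KAP1 regions 8.401% (2174) were 2-fold higher in both replicates, in those with H3K9me3 12.9% (1897), and in those without it 2.48% (277). The share was 7.204% (1035) in KAP1-dependent H3K9me3 regions, 0.612% (170) in H3K4me3 regions and 0.0527% (10) in H3K27me3 regions. Of the 3402 regions that were 2-fold higher in both replicates, 92.6% overlapped a KAP1 region, as did 31.7% of the 1141 that were 2-fold lower in both and 43.8% of all regions kept. Regions of the KAP1 set overlap themselves by definition. They made up 63.9% of the 3402, 27.2% of the 1141 and 29.5% of all regions kept. In the inputs, 0.0536% of all regions were 2-fold higher in the same library of both pairs, in an order that is arbitrary for replicate 2.

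The larger list of replicate 2 held most of that of replicate 1 in KAP1 regions, since 66.4% of those 2-fold higher in replicate 1 were so in replicate 2, and 37.3% the other way around. In H3K4me3 regions these shares were 10.8% and 21.0%. Across regions the changes of the replicates had a Spearman correlation of 0.519 over all 87623 regions, 0.627 in KAP1 regions, 0.766 in KAP1-dependent H3K9me3 regions, 0.342 in H3K27me3 regions and 0.215 in H3K4me3 regions, whereas the changes of the inputs correlated at 0.008. The reading of the replicate 2 libraries used these same regions, and neighbouring or overlapping regions and copies of one repeat are not independent points.

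**Figure D3:**
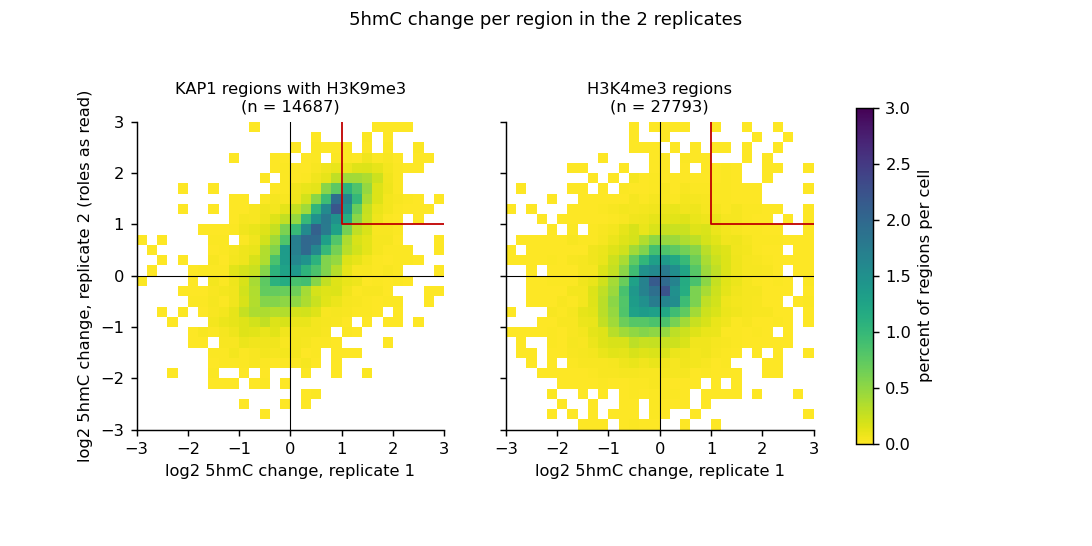
Each cell gives the percent of regions with a given log2 5hmC change in replicate 1 (x axis) and in replicate 2 (y axis), for KAP1 regions with H3K9me3 and for H3K4me3 regions, with values beyond 3 placed in the outer cells. Regions inside the red corner were at least 2-fold higher in both replicates, 12.9% in the first panel and 0.612% in the second.

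The likeness of the replicates in single KAP1 regions went with depth. In KAP1 regions with 20 to 50 input reads over both replicates, the replicates correlated at 0.491 and 3.09% of regions were 2-fold higher in both. In those with 200 or more input reads they correlated at 0.826 and 34.95% were 2-fold higher in both, with median changes of 0.87 and 1.25. In H3K4me3 regions the correlation was lower in the same 2 depth classes, at 0.162 and 0.234, and the share 2-fold higher in both was 1.51% and 0.179%. These classes go by input reads only and do not match the sets in 5hmC reads. The median log2 ratio of 5hmC over input in shEmpty was -1.18 and -1.38 in H3K4me3 regions, against 0.37 and 0.28 in KAP1 regions. Input depth follows region length, and among KAP1 regions with H3K9me3 the top quartile of length (1311 to 10320 bases) had median changes of 0.79 and 1.15 against 0.19 and 0.27 in the bottom one. Regions were divided by one of length, depth and peak score at a time, and their separate parts were not tested.

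Within KAP1 regions the change went with the strength of the KAP1 peak and, up to the third quartile, with CpG density. By quartiles of the MACS peak score, KAP1 regions with H3K9me3 had median changes of 0.14 and 0.23 in the lowest and of 0.74 and 1.03 in the highest, where 27.8% were 2-fold higher in both replicates. By quartiles of CpG density, the same regions had 0.14 and 0.11 below 2.04 CpG per 100 bases and 0.59 and 0.98 above 3.54. The third quartile already stood at 0.61 and 0.94, with 23.2% 2-fold higher in both replicates against 17.9% in the highest. KAP1 regions without H3K9me3 showed a smaller span, from -0.23 and -0.41 in the lowest quartile of CpG density to 0.14 and 0.28 in the highest, and from -0.10 and -0.09 to 0.03 and 0.09 by peak score. H3K4me3 regions had their lowest medians, -0.08 and -0.36, in the quartile with the highest CpG density, so that CpG density did not go with a gain of 5hmC in that set. The level of 5hmC without knockdown told little about the change in KAP1 regions. Taken from the other replicate, so that no library was in both measures, its Spearman correlation with the change over 25878 regions was -0.01 for the change of replicate 1 and 0.11 for that of replicate 2.

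Before knockdown, 5hmC was already above input in KAP1 regions and below it in H3K4me3 regions. The median log2 ratio of 5hmC shEmpty over the pooled inputs of its replicate was 0.37 and 0.28 in KAP1 regions, 0.14 and 0.09 in KAP1-dependent H3K9me3 regions, -0.34 and -0.60 in H3K27me3 regions and -1.18 and -1.38 in H3K4me3 regions. In shKap1 the KAP1 regions with H3K9me3 stood at 0.85 and 1.06, up from 0.35 and 0.26, while those without H3K9me3 stood at 0.41 and 0.28, where they had been at 0.42 and 0.30. With the satellite block in the totals, the ratio of KAP1 regions before knockdown became 0.12 and -0.16, so its sign rests on the scaling.

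Within KAP1 regions the gain lay at TEs, and regions without any TE did not show it. The 24165 KAP1 regions that overlapped a TE had median changes of 0.25 and 0.43, and 8.92% were 2-fold higher in both replicates. The 1713 without one had -0.14 and -0.45, with 1.05% 2-fold higher in both. They were also shorter, with a median of 599 against 744 bases, and these 2 groups were not divided by H3K9me3. The parts of length and H3K9me3 in this difference were not tested. By the repeat that covered at least 50% of the region, LTR elements (65.5% of KAP1 regions) had 0.26 and 0.43 and LINEs (20.2%) had 0.39 and 0.72. SINEs (162 regions, -0.13 and -0.16) and simple repeats (140 regions, -0.61 and -0.61) had lower 5hmC in shKap1 relative to all regions. The simple repeats held a median of only 0.15 CpG per 100 bases, against 2.53 in LTR regions. Whether their reads stand for 5hmC was not tested. Scaled to all reads, SINEs stood above 0 in both replicates, at 0.14 and 0.22, and for regions without a TE the replicate 1 value is within the shift of 0.27 that this scaling makes. Reads of young TEs can map equally well to many copies, so that the value of a single copy is uncertain where near-identical copies share reads.

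Among TE families, L1Md_A had the largest median change in both replicates, and IAPEz came next in replicate 2 and in the share of regions 2-fold higher in both. A KAP1 region counted for each family that it overlapped by at least 1 base, so families could share regions. L1Md_A, a young family of LINE-1 elements, had median changes of 0.65 and 1.10 in 2732 KAP1 regions, of which 17.8% were 2-fold higher in both replicates and 84.6% higher by any amount in both, as were 33.2% of all regions. IAPEz, an active family of endogenous retroviruses that KAP1 is known to silence in mESCs, had 0.50 and 0.84 in 7128 regions, with 16.2% and 76.0%. Scaled to all reads, the shares higher by any amount in both were 91.9% for L1Md_A, 88.5% for IAPEz and 53.7% for all regions. The IAPEz elements with IAPLTR1 (0.52 and 0.87) and with IAPLTR2 (0.47 and 0.78) stood close to each other.

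Other endogenous retroviruses had smaller medians in replicate 2, and in replicate 1 ETnERV alone was above IAPEz. ETnERV had 0.53 and 0.45 (791 regions), IAPEY3 0.45 and 0.53 (696), MMETn 0.45 and 0.49 (388), IAP-d 0.38 and 0.33 (113), MMERVK10C 0.24 and 0.38 (666) and MMERVK9E 0.31 and 0.19 (198). MERVL, the element of cells resembling the early cleavage embryo, had 0.40 and 0.24 in 62 regions, and its LTR MT2_Mm 0.35 and 0.31 in 46. ORR1A had 0.14 and 0.44 (194 regions) and RLTR4 had 0.31 and 0.06 (128 regions). The families nearest to no change were MMVL30, at 0.11 and 0.03 in 70 regions, and MuRRS, at 0.02 and -0.02 in 144 regions.

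The other LINE-1 families lay below L1Md_A, with L1Md_F at 0.30 and 0.50, L1Md_Gf at 0.27 and 0.42, L1Md_F2 at 0.21 and 0.39, L1Md_F3 at 0.21 and 0.34 and L1Md_T at 0.08 and 0.36. The older Lx elements stood at 0.22 and 0.49. The SINEs B1_Mm (164 regions) and B2_Mm (390 regions) within KAP1 regions stood at 0.18 and 0.33, and at 0.17 and 0.33. The other scalings moved all changes by -0.06 to 0.27 in replicate 1 and by 0.12 to 0.38 in replicate 2. The only downward move, that of -0.06, is smaller than the replicate 1 median of every family named above except MuRRS.

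**Figure D4:**
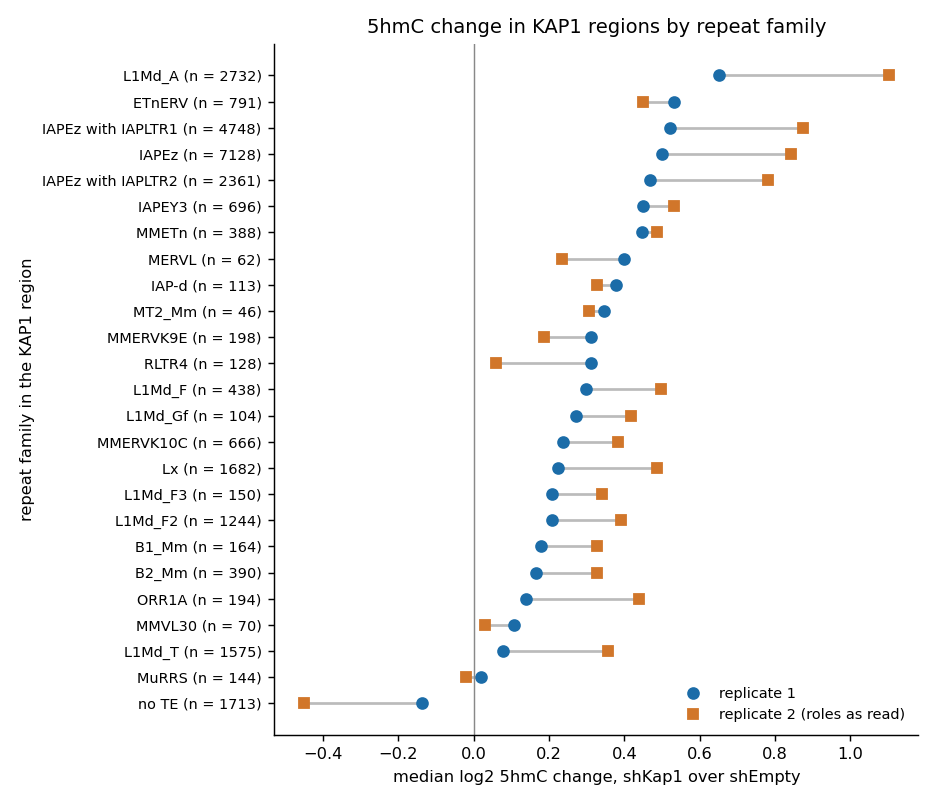
Each row gives the median log2 5hmC change in KAP1 regions that overlap a repeat family, for replicate 1 (circles) and replicate 2 (squares), with the number of regions. L1Md_A lies farthest right at 0.65 and 1.10, and KAP1 regions with no TE lie at -0.14 and -0.45.

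The median change was larger with H3K9me3 than without it in all 23 family groups in which both could be given, IAPEz counting whole and by each of its LTRs, but the level without H3K9me3 differed between them. Regions with H3K9me3 were also longer in each of these groups, with medians of 1151 against 845 bases in IAPEz and 1343 against 546 in MERVL. The part of length was not tested. MT2_Mm is not among these groups, since too few of its regions carried H3K9me3. L1Md_A regions with H3K9me3 (1659) had median changes of 0.75 and 1.20, and those without it (1073) had 0.48 and 0.93. IAPEz regions had 0.51 and 0.85 with H3K9me3 (6693) and 0.30 and 0.77 without it (435). MMETn, with 0.51 and 0.55 against 0.39 and 0.46, and ETnERV, with 0.61 and 0.61 against 0.39 and 0.24, also had more 5hmC in shKap1 in either case.

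In the other families the medians without H3K9me3 lay between -0.27 and 0.18 in replicate 1 and between -0.26 and 0.35 in replicate 2. MERVL had 0.62 and 0.95 in the 25 regions with H3K9me3 and -0.10 and -0.02 in the 37 without. IAPEY3 had 0.55 and 0.62 against -0.04 and 0.10, MMERVK10C 0.33 and 0.46 against -0.06 and 0.06, Lx 0.42 and 0.81 against -0.03 and 0.12, and L1Md_F2 0.38 and 0.59 against -0.08 and 0.10. Without H3K9me3, L1Md_Gf stood at 0.14 and 0.35, L1Md_T at -0.05 and 0.27, L1Md_F at 0.04 and 0.20, ORR1A at -0.08 and 0.13 and L1Md_F3 at -0.13 and -0.09. RLTR4 stood at 0.14 and -0.26, IAP-d at 0.16 and -0.01, MMERVK9E at 0.18 and -0.003 and MuRRS at -0.27 and -0.09. MMVL30 stood at 0.04 and -0.02, B1_Mm at 0.06 and -0.09 and B2_Mm at -0.08 and 0.05. Among KAP1-dependent H3K9me3 regions that were mostly LINE, those with KAP1 had 0.37 and 0.59 (2609) and those without it had -0.45 and -0.57 (1858), and for LTR regions the values were 0.49 and 0.69 (6168) against 0.20 and 0.14 (1535).

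The single regions with the largest shared change show the sizes reached. These were taken as the 3 with the largest smaller change of the 2 replicates in each direction, among regions with at least 30 input reads in each replicate, so that their rank is a matter of choice and not a result. The KAP1 region at chr12:24844597-24845393, which is intergenic and holds L1Md_F and an MMERVK10C element with RLTR10C, went from 13 to 111 5hmC reads in replicate 1 and from 12 to 120 in replicate 2. Its inputs held 18 and 16 reads in replicate 1 and 19 and 26 in replicate 2. The log2 changes were 2.55 and 2.55 after scaling.

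A KAP1 region at chr12:23219998-23220705 with RLTR45 and ERVB4_2 sequences went from 10 to 67 and from 9 to 73 reads (2.18 and 2.21). The one at chr4:61405459-61406701, with MMERVK10C and IAPEY5 sequences, went from 24 to 169 and from 18 to 133 reads (2.32 and 2.14). All of these were intergenic, carried H3K9me3 and held ERVK elements, the class of endogenous retroviruses to which IAPs belong.

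Among KAP1-dependent H3K9me3 regions, the one at chr1:197107801-197108799 with L1Md_F2 went from 22 to 144 and from 28 to 287 reads (2.21 and 2.64), while its inputs held 21 and 31, and 18 and 31. It did not overlap a KAP1 region. A region with L1Md_A at chr1:159542601-159544599 went from 22 to 135 and from 24 to 168 reads (2.12 and 2.08). An ETnERV element at chr7:34233401-34235599 went from 21 to 137 and from 24 to 160 reads (2.2 and 2.01). Of the KAP1-independent H3K9me3 regions, the leading 3 all overlapped KAP1 and held an IAPEz between IAPLTR1 or IAPLTR1a copies, and that at chr1:197146001-197150999 went from 70 to 285 and from 83 to 530 reads (1.56 and 1.99). The leading gains of both H3K9me3 sets lay on LINE-1 or ERVK copies, which describes these regions only and not the sets. Of KAP1-dependent H3K9me3 regions, 53.6% were mostly LTR and 31.1% mostly LINE, and of KAP1-independent ones 47.2% and 10.7%.

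The 3 H3K4me3 regions with the largest shared gain held LTRs. None of the 3 overlapped a KAP1 region, as was so for 25898 of all 27793 kept in this set. That in an intron of Ppp6r3, a subunit of protein phosphatase 6, with RLTR1B (chr19:3532773-3533590) went from 4 to 30 and from 3 to 29 reads. That at an exon of Brd1 with ORR1A2 (chr15:88536537-88539405), a gene for a bromodomain protein of histone acetyltransferase complexes, went from 10 to 76 and from 10 to 75 reads, with input reads of 49 and 66, and 68 and 78. An intergenic one with RLTR26 at chr5:116830196-116832265 went from 11 to 69 and from 7 to 56. In H3K27me3 regions the largest shared gain was 1.05 and 1.09, at an exon of 2700081O15Rik, from 16 to 47 and from 9 to 33 reads.

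In the other direction, several of the largest shared losses were at simple repeats or rested on few reads. The H3K27me3 region at chr8:129332601-129333799 with a TCC repeat went from 120 to 46 and from 130 to 68 reads (-1.81 and -1.60), against 22 and 27, and 37 and 35 input reads. The KAP1-independent H3K9me3 region at chr1:192124001-192127799, with no annotated repeat or gene, had 1521 and 882 reads in replicate 1 and 1483 and 988 in replicate 2 (-1.23 and -1.26). A second with a CCAA repeat in an intron of Cttnbp2nl went from 365 to 202 and from 576 to 330 reads (-1.30 and -1.47). The former held 0.13 and the latter 0 CpG per 100 bases, and whether their reads stand for 5hmC was not tested. Copies of one family went both ways, as the L1Md_F2 copy at chr8:76219801-76220399, a KAP1-dependent H3K9me3 region without KAP1, went from 24 to 6 and from 18 to 6 reads (-2.28 and -2.11). In KAP1 regions and H3K4me3 regions the leading losses had at most 24 5hmC reads in shEmpty, for instance 8 to 2 and 8 to 3 at an exon of B630005N14Rik with a CCG repeat, and single values there are within counting error of smaller changes.

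ICRs had more 5hmC in shKap1 where they overlapped a KAP1 region. These regions carry the methylation of one parental allele and control imprinted genes nearby. Of the 32 ICR entries counted, 27 were kept, 16 of them with a KAP1 region and 11 without. The split is by overlap with the KAP1 regions counted here, and the study's own annotation of ICRs differs from it at Rasgrf1, which it lists as bound by KAP1. Of the 16 with KAP1, 14 were higher in replicate 1, 13 in replicate 2 and 13 in both, with medians of 0.99 and 0.48. Of the 11 without KAP1, 6 were higher in replicate 1, 1 in replicate 2 and 0 in both, with medians of 0.03 and -0.35. Of all regions, 52.9% were higher in replicate 1, 45.2% in replicate 2 and 33.2% in both. Scaled to all reads, 13 of the 16 and 4 of the 11 were higher in both. The difference between the groups was 0.95 and 0.83, and that of the inputs was 0.22 and 0.013. Median length was 2408.5 bases with KAP1 and 824 without, and its part was not tested. Where an overlap of at least 50% of the ICR was asked for, 9 ICRs counted as having KAP1, with medians of 0.69 and 0.46 and 8 higher in both, and 18 as lacking it, with medians of 0.45 and -0.28 and 5 higher in both. The difference was then 0.24 and 0.74, so that its size in replicate 1 and the 0 of 11 rest on how overlap is defined.

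At 6 ICRs with KAP1 the 95% interval of the change from counting error alone lay above 0 in both replicates. Such intervals were taken for ICRs only, so that no share of all regions stands beside this count. The H19 ICR (chr7:149765792-149767931) went from 45 to 144 5hmC reads in replicate 1 and from 34 to 120 in replicate 2, while its inputs held 34 and 46, and 38 and 39, and the changes were 1.21 (0.74 to 1.75) and 1.12 (0.59 to 1.74). H19 was at least 2-fold higher in both replicates, as was 1 other ICR, Herc3, on few reads. The Gnas ICR went from 136 to 382 and from 107 to 330 reads, with changes of 1.04 (0.76 to 1.34) and 0.94 (0.63 to 1.28). The Peg3 ICR went from 105 to 287 and from 88 to 249 reads, with changes of 1.00 (0.68 to 1.34) and 0.82 (0.47 to 1.19).

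The IG-DMR, which controls the Dlk1 and Gtl2 cluster, went from 57 to 175 and from 42 to 110 reads, with changes of 1.16 (0.73 to 1.63) and 0.69 (0.19 to 1.26). Trappc9 went from 91 to 201 and from 66 to 146 reads, with changes of 0.69 (0.33 to 1.07) and 0.46 (0.04 to 0.91). Mest went from 39 to 106 and from 42 to 99 reads, with changes of 0.97 (0.46 to 1.57) and 0.54 (0.03 to 1.12). Paternally methylated ICRs (H19, IG-DMR) and maternally methylated ones (Gnas, Peg3, Mest, Trappc9) were thus both among them.

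A further 4 intervals lay above 0 in replicate 1 only, at Airn (11 to 53 and 14 to 38 reads), Plagl1 (31 to 128 and 40 to 83), Peg10 (67 to 142 and 64 to 117) and Herc3 (5 to 19 and 4 to 16). Kcnq1ot (0.46 and 0.50), Snrpn (0.28 and 0.24) and Impact (0.82 and 0.06, from 4 and 5 reads in shEmpty) were higher in both, with intervals that included 0. Myo10 had 1 to 8 and 3 to 2 reads and opposite signs. The exceptions were Grb10, which went from 141 to 117 and from 148 to 143 reads with changes of -0.71 (-1.08 to -0.35) and -0.72 (-1.06 to -0.38), and Commd1, at 143 to 186 and 197 to 234 reads, with -0.07 (-0.39 to 0.26) and -0.43 (-0.70 to -0.14). Both overlapped a KAP1 region, and they were the KAP1-bound ICRs with the most 5hmC over input before knockdown in replicate 2 (0.49 at Grb10 and 0.46 at Commd1, with none of the others above 0). In replicate 1 they stood at 0.64 and 0.29, with Kcnq1ot (0.85), Trappc9 (0.38) and Peg10 (0.06) also above 0, whereas H19 stood at -0.06 and -0.48 and the IG-DMR at -0.85 and -1.68. The shEmpty library enters both this ratio and the change. Scaled to all reads, 1 ICR with KAP1 was lower in both replicates instead of 2. The replicate 1 change of -0.07 at Commd1 lies within the shift of 0.27 that this scaling makes.

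With overlap of at least 1 base and the scaling used, no ICR without KAP1 was higher in both replicates. Zdbf2, the most deeply covered with 551 to 767 and 540 to 702 reads, changed by 0.03 (-0.13 to 0.19) and -0.30 (-0.46 to -0.13). Rasgrf1, at 219 to 245 and 228 to 284 reads, changed by -0.28 (-0.55 to -0.01) and -0.36 (-0.61 to -0.10). GnasXL (0.75 and -0.45), Grb10_2 (0.64 and -0.35), Ccdc40 (0.61 and -0.15) and Slc38a4 (0.30 and -0.59) were higher in replicate 1 and lower in replicate 2, and 6330408A02Rik had 21 to 4 and 6 to 15 reads. The entry deposited as GnasXL lies within the ICR that the study lists as GnasEx1a, without KAP1. The study's GnasProXL, listed with KAP1, overlaps the entry called Gnas here. Actn1, at 22 to 18 and 29 to 21 reads, was lower in both (-0.72 and -1.12). AK039108 had 5 to 4 and 2 to 3 reads, and the H13 entries had 1 to 2 and 2 to 3 reads, and 2 to 0 and 0 to 0, so that no fold is given for them, although they enter the counts above by their scaled values.

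**Figure D5:**
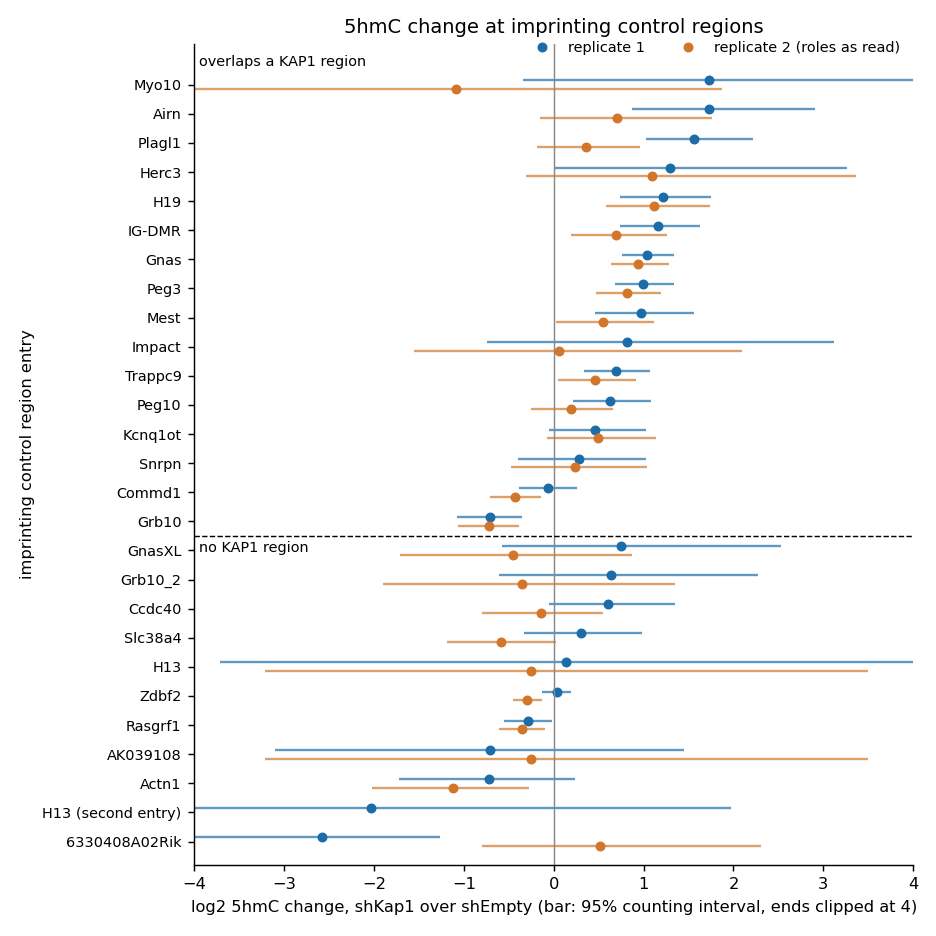
Points give the log2 5hmC change (x axis) of the 27 ICR entries kept, for both replicates, and bars the exact 95% interval from counting error. Above the dashed line are the 16 entries that overlap a KAP1 region, of which 13 are higher in both replicates, and below it the 11 that do not overlap one by a single base, of which 0 are in the scaling used and 4 when scaled to all reads.

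The satellite block on chromosome 9 moved the opposite way to the TEs. It went from 2806449 to 1985186 reads in the 5hmC libraries of replicate 1, that is from 35.9% to 22.5% of their reads, and from 4382746 to 3197136 in replicate 2, from 42.7% to 25.4%. Relative to the other regions these are changes of -0.94 and -1.13. The inputs went the other way, by 0.41 and 0.24 with the hairpins as in the names of the deposited tables, since those of replicate 1 held 20.9% and 26.0% and the input-like libraries of replicate 2 held 20.8% and 23.7% of their reads in it. Among the 61 kept regions whose main repeat was a satellite, 47 (77.0%) were lower in both replicates and 1 was higher in both, with medians of -0.45 and -0.40, whereas 35.1% of all regions were lower in both. Scaled to all reads, 24 satellite regions (39.3%) were lower in both and 14 higher in both, with medians of -0.17 and -0.02, against 17.0% of all regions lower in both. Simple repeats went the same way in all sets together, with 298 of 359 regions (83.0%) lower in both, medians of -0.63 and -0.65 and a ratio of 5hmC over input without knockdown of 2.17 and 2.33. Scaled to all reads, 66.6% of them were lower in both, with medians of -0.36 and -0.27. These simple repeats held a median of 0.16 CpG per 100 bases, against 2.48 over all regions. Whether their reads stand for 5hmC was not tested. Repeated sequence of this kind is present in many more copies than the genome assembly holds, so the reads of the block stand for more than its own bases.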

How the data were processed

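hMeDIP libraries of wild-type J1 mESCs had been sequenced as single-end reads of 100 bases by the authors, who ligated adapters before denaturation and immunoprecipitation, mapped the reads and deposited read counts per region. The counts stand in the fifth column of the tables, except in those of KAP1 regions, where the fifth holds the MACS score and the last column, next to it, was used. Upstream tools named in the submitters' processing notes are Bowtie2 2.2.1, MACS 1.4, SICER 1.1, bedtools 2.25 and HTSeq 0.6, and how reads with several best positions were placed is not given in the sources used here. The deposited MACS score of KAP1 peaks was used only to divide regions into quartiles. Deposited gene counts of wild-type RNA-seq gave CPM values, with no test.

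The members and lists described here were chosen with earlier results of these data known. Counts were scaled to the reads in all sets without regions above 5% of a library, 1 read was added, and changes were taken as log2 ratios for regions with at least 10 reads over the inputs of each replicate. Sets were divided by an overlap of at least 1 base (bedtools 2.31.1), and "2-fold" marks changes of at least 2-fold. Intervals at 95% are exact (Clopper-Pearson) and cover counting error only, and PCR duplicates are not independent molecules. Named regions were the 3 with the largest smaller change of the replicates in each direction and set, with at least 30 input reads in each replicate, and all ICRs. Genes and sequences came from NCBIM37 annotation and genome, and motifs were searched on both strands. Repeats came from the track deposited with a wild-type RNA-seq sample, in which internal parts of endogenous retroviruses are merged with their LTRs. Python 3.11.15, numpy 2.4.6, pandas 2.3.3, scipy 1.17.1 and matplotlib 3.10.9 were used, and the steps were checked on simulated data. Apart from the RNA-seq gene counts and the repeat track, other samples and tables of the series were not used here. Alternatives covered scaling, pseudocount, filter, use of inputs, overlap and the labelled roles.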

Additional observations from a re-analysis of the deposited data

How the results depend on the processing

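With roles as labelled, replicate 2 compares libraries of unlike kind, and its values reversed, to -0.77 in KAP1 regions, 1.66 in H3K4me3, 1.00 in H3K27me3, -0.51 in KAP1-dependent and 0.48 in KAP1-independent H3K9me3 regions. The differences became -2.43 (KAP1 minus H3K4me3), -1.77 (KAP1 minus H3K27me3), -0.75 (KAP1 regions with minus without H3K9me3) and -0.38 (ICRs with minus without KAP1).

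Scaling to all reads, with the satellite block in the totals, gave medians of 0.51 and 0.75 in KAP1 regions and raised the share 2-fold higher in both replicates to 18.3%. Among the values that it turned positive were those of replicate 2 for ICRs without KAP1 (0.029), Zdbf2 (0.085) and Rasgrf1 (0.023). The replicate 1 value of H3K27me3 regions (0.12) was another. Both replicates' values turned positive for H3K4me3 regions (0.26 and 0.16) and KAP1 regions with H3K4me3 (0.15 and 0.29). So did both for KAP1-dependent H3K9me3 regions without KAP1 (0.12 and 0.10) and KAP1-independent H3K9me3 regions (0.12 and 0.086). The KAP1 median of replicate 2 was 0.55 scaled to H3K4me3 reads and 0.49 by median of ratios, with KAP1 regions with H3K4me3 at 0.090 and 0.034. The ratio of KAP1 regions over input without knockdown was 0.12 and -0.16 with all reads, 1.34 and 1.43 with H3K4me3 reads and 0.63 and 0.71 by median of ratios.

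A filter of 30 input reads gave KAP1 medians of 0.35 and 0.55, a ratio over input of 0.30 in replicate 1, an ICR difference of 0.73 in replicate 1 and a Spearman correlation of 0.547. That correlation was 0.510 and 0.566 with 0.5 and 5 reads added, and 0.384 over inputs in either pairing. With 5 reads added the KAP1 median of replicate 2 was 0.24. At 50% overlap the ICR differences were 0.24 and 0.74, and KAP1-dependent H3K9me3 regions without KAP1 stood at 0.15 and 0.15. Of the other values compared, 620 stayed within the spread of the replicates, or within counting error for ICRs, and 78 moved beyond it. Some of these 78 crossed 0 from a value whose spread already included 0. With all reads, H3K27me3 and H3K4me3 regions of replicate 1 did so, to 0.12 and 0.26. Apart from the effects of scaling and overlap, the causes were not tested.

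No paired analysis was run, and the values come from no test. By the labels none was possible, since the 5hmC pair of replicate 2 holds 1 library that was 5hmC-like and 1 that was input-like. With the roles read from values, which all replicate 2 values use, a block fit over both replicates was left out, since those roles were set by likeness to replicate 1. Leaving out a replicate leaves the values of the other, which are given side by side. Depth limits single regions, since ICRs with under 10 reads in a 5hmC library had intervals wider than their change.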

Other observations

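KAP1 regions on the X chromosome (1435) had median changes of 0.33 and 0.60, against 0.22 and 0.35 on autosomes (24124), where the chromosomes ranged from 0.10 to 0.29 and from 0.25 to 0.42. Regions with H3K9me3 were close to each other, at 0.49 and 0.77 on the X and 0.41 and 0.63 on autosomes, whereas those without H3K9me3 stood at 0.19 and 0.40 on the X (653) and at -0.03 and -0.01 on autosomes (10236). Of these, 6.28% on the X and 2.00% on autosomes were at least 2-fold higher in both replicates. LTR regions differed less, with 0.28 and 0.53 on the X and 0.26 and 0.43 on autosomes, than LINE regions, with 0.56 and 0.97 (410) and 0.37 and 0.69 (4763). Among LINE regions without L1Md_A the X stood at 0.09 and 0.40 and autosomes at 0.04 and 0.25. X regions also held more CpG, with a median of 3.20 per 100 bases against 2.66, and its part in the difference was not tested.

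H3K27me3 regions that also carried H3K4me3 (4403) had median changes of -0.03 and -0.31, and those with H3K27me3 alone (14583) had -0.21 and -0.48. By CpG density, H3K27me3 regions ran from -0.39 and -0.61 in the lowest quartile to -0.01 and -0.30 in the highest. Chromosomes 6 and 8, which hold 35.3% of these regions, had a low CpG density, and their part in this order was not tested. LINE-dominated H3K4me3 regions (3219) were at -0.11 and 0.13, and so differed in sign between replicates.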
